A study of Rattus norvegicus with 16 samples.

Results

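The transcripts described here are 6 of the mRNAs encoded by the mitochondrial genome: mt-Cyb of respiratory complex III, mt-Co1, mt-Co2 and mt-Co3 of complex IV, and mt-Atp6 and mt-Atp8 of complex V. They were chosen by a list of Ensembl gene IDs, given below with each gene, and all 6 were found among the 32754 IDs of the count table and passed the filter on low counts. RNA came from the hippocampus, which serves memory and mood, of male rats of the inbred Fischer-344 strain, all labelled wild type. The groups were young sedentary and young exercise-trained rats, 6 months old, and old sedentary and old exercise-trained rats, 20 months old, with 4 libraries each and 1 rat per library. Training or sedentary housing lasted 10 weeks, and rats were killed 2 days after their final behavioral test. The series title ties the study to aging, exercise, cerebral vessels and depressive behavior; soleus citrate synthase activity, named in the labels as the check of training, was not analysed here.

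Complex III passes electrons from ubiquinol to cytochrome c, complex IV passes them on to oxygen, and complex V uses the proton gradient that results to make ATP. Each complex joins a few subunits made from mitochondrial DNA with many made from nuclear genes, and neurons depend heavily on the ATP they supply. The mitochondrial genome is transcribed into long precursors that are cut, mostly at tRNAs, into mRNAs with short poly(A) tails, so poly(A) selection captures them. The reading frames of mt-Atp8 and mt-Atp6 overlap and lie on a shared mRNA. The sources used do not say how reads in that overlap were counted, so the split between these genes is uncertain, as is the assignment of reads shared with nuclear copies of mitochondrial DNA. Gene lengths were not used here, so levels are compared between libraries and not between genes, and no sequence is printed because none of these genes is in the sequence tables used.

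Library totals ran from 8630396 to 14576687 counts. No member fell below 3566 counts in any library, so counting error was small beside the spread between rats. The first principal component of log2 expression (46.9% of the variance) separated trained libraries, at -39.8 to -18.9, from sedentary ones, at 0.692 to 55.9. Old sedentary replicate 3, at 12.7, stood apart there from the other old sedentary libraries, at 49.7 to 55.9. The IDs are not paired with symbols by the sources used, so hippocampal and other cell type markers were not checked. In bulk tissue, fewer cells of a type and less RNA per cell cannot be told apart.

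Together the 6 transcripts held about the same share of the library in every group. The share of all counts averaged 5.31% ± 0.566 for young sedentary and 5.14% ± 0.398 for young trained rats (mean ± SD, n = 4 per group). It averaged 5.39% ± 0.576 for old sedentary and 5.26% ± 0.582 for old trained rats (mean ± SD, n = 4 per group). The group means thus lay closer together than the libraries within any 1 group, which ran from 4.80% to 5.96%, 4.55% to 5.42%, 4.74% to 6.14% and 4.72% to 6.02% in the same order. mt-Co1 had more counts than any other gene ID in all 16 libraries. mt-Co3 and mt-Cyb ranked between 2 and 4 by raw counts, mt-Atp6 between 4 and 6, mt-Co2 between 5 and 15, and mt-Atp8 between 162 and 399.

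**Figure D1:**
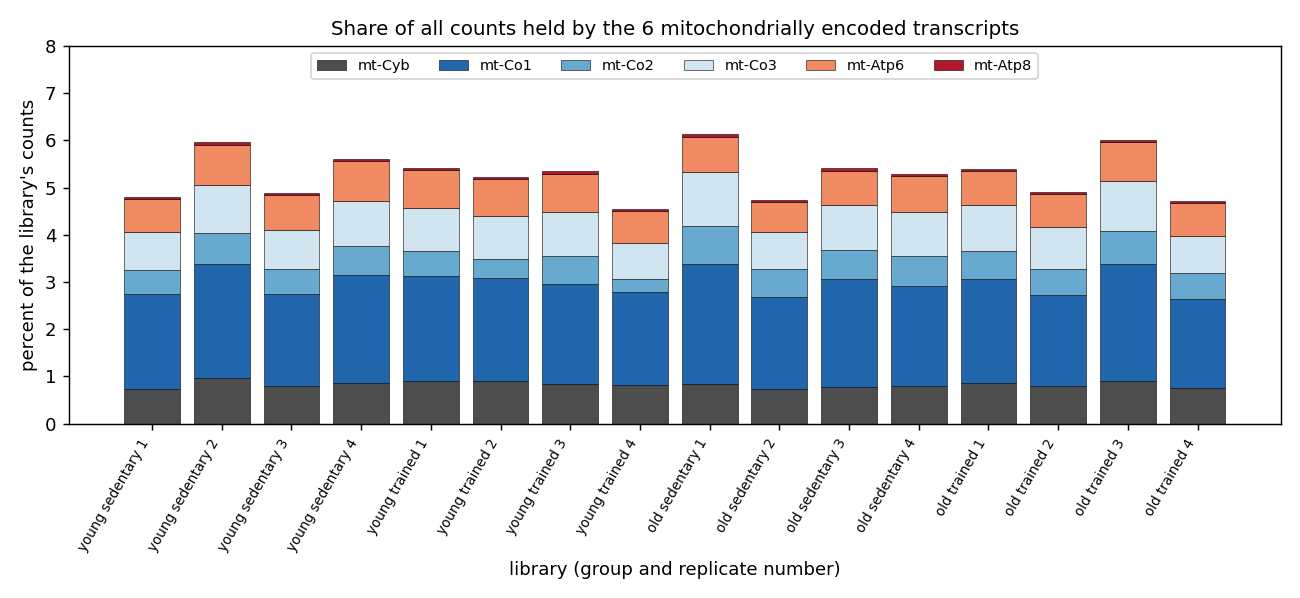
Percent of each library's counts held by each of the 6 transcripts, stacked, with 1 bar per library. Bars reach from 4.55% (young trained replicate 4) to 6.14% (old sedentary replicate 1), and each group holds both tall and short bars.

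The transcripts mostly rose and dipped together from rat to rat within a group. Pearson's r between their deviations from the group means ran from 0.54 (mt-Cyb with mt-Co2) to 0.93 (mt-Co1 with mt-Co3). In young sedentary rats, replicates 2 and 4 were above replicates 1 and 3 for all 6 transcripts. In old trained rats, replicates 1 and 3 were above replicates 2 and 4 for all 6. Old sedentary replicate 2 was the lowest of its group for all 6, and young trained replicate 4 the lowest of its group for 5, the exception being mt-Cyb. Young trained replicate 3 went both ways: it was the lowest of its group for mt-Cyb and the highest for mt-Co2, mt-Co3, mt-Atp6 and mt-Atp8. On the first principal component, young sedentary replicates 2 and 4 lay at 29.3 and 25.7 and replicates 1 and 3 at 0.692 and 1.34. The old sedentary library with the lowest levels lay at 55.9, at the far end. The part of that component in these levels was not tested.

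Within groups, the standard deviation of log2 CPM (the usual depth-scaled count, here with TMM library scaling) was 0.11 for mt-Cyb, 0.12 for mt-Atp6, 0.14 for mt-Co1 and 0.17 for mt-Co3. It was 0.28 for mt-Co2 and 0.27 for mt-Atp8. The median over the 15035 genes tested was 0.19, and over the 248 genes at least as abundant as mt-Atp8, the members included, it was 0.13. Against all tested genes, most of them less abundant, mt-Cyb and mt-Atp6 were among the steadier transcripts, with 82.6% and 80.1% of genes more variable. mt-Co2 and mt-Atp8 were among the less steady, with 28.3% and 30.2% more variable. Against the median of the abundant genes, mt-Cyb and mt-Atp6 were a little below, and mt-Co1, mt-Co3, mt-Co2 and mt-Atp8 above.

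mt-Cyb (ENSRNOG00000031766) encodes cytochrome b, which carries the b hemes of complex III between its ubiquinol and ubiquinone sites. It stood at 7456, 9526, 7816 and 8635 CPM in young sedentary replicates 1 to 4 and at 9226, 9088, 8450 and 8468 CPM in young trained replicates 1 to 4. It stood at 8027, 7065, 7693 and 7769 CPM in old sedentary and at 8934, 8177, 9005 and 7624 CPM in old trained replicates 1 to 4. Old sedentary rats were lowest on average and young trained rats highest, and those libraries did not overlap (7065 to 8027 against 8450 to 9226 CPM). These groups differ in both age and training and were compared because their means were the extremes. The share of all genes that separate them was not computed, so no weight is put on this gap. Groups that differ in age or training alone overlapped. The mean was 8358 ± 922 for young sedentary, 8808 ± 407 for young trained, 7638 ± 408 for old sedentary and 8435 ± 658 for old trained rats (CPM, mean ± SD, n = 4 per group). Averaged over age, the log2 fold change of trained against sedentary was 0.11 (SE 0.06, 95% interval -0.02 to 0.24, edgeR quasi-likelihood test, adjusted p = 0.183). Old against young, averaged over training, gave -0.10 (SE 0.06, 95% interval -0.23 to 0.03, adjusted p = 0.339). Neither passed the threshold of adjusted p below 0.05, and the intervals hold folds from 0.986 to 1.18 for training and from 0.855 to 1.02 for age.

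mt-Co1 (ENSRNOG00000034234) encodes the subunit that holds the heme and copper center where oxygen is reduced. It stood at 20064, 24058, 19386 and 22692 CPM in young sedentary replicates 1 to 4 and at 22821, 22119, 21485 and 20533 CPM in young trained replicates 1 to 4. In old sedentary replicates 1 to 4 it stood at 24329, 18738, 22487 and 20832 CPM, and in old trained ones at 22607, 19551, 24878 and 19128 CPM. Each group spanned much the same range, young trained libraries being the closest together. The means were 21550.1 ± 2197 for young sedentary, 21739.8 ± 972 for young trained, 21596 ± 2382 for old sedentary and 21541 ± 2711 for old trained rats (CPM, mean ± SD, n = 4 per group). The log2 fold change was 0.0045 for training averaged over age (95% interval -0.15 to 0.16, edgeR adjusted p = 0.970) and -0.0051 for age averaged over training (95% interval -0.16 to 0.15, edgeR adjusted p = 0.975). These intervals hold folds from 0.900 to 1.12 for training and from 0.894 to 1.11 for age.

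mt-Co2 (ENSRNOG00000030371) encodes the subunit whose copper site takes electrons from cytochrome c, and it differed most among the 6. In young sedentary replicates 1 to 4 it stood at 5029, 6633, 5264 and 6127 CPM. In young trained replicates 1 to 4 it stood at 5357, 4048, 5972 and 2901 CPM, so replicates 2 and 4 were below every other library of the study. In old sedentary replicates 1 to 4 it stood at 7650, 5649, 6081 and 6227 CPM, and in old trained ones at 6250, 5442, 7152 and 5462 CPM. The young trained mean was the lowest, at 4570 ± 1372 CPM (SD, n = 4), against 5763 ± 747 for young sedentary, 6402 ± 868 for old sedentary and 6076 ± 810 for old trained rats (mean ± SD, n = 4 per group). In young rats the log2 fold change with training was -0.33 (SE 0.18, 95% interval -0.71 to 0.04, edgeR adjusted p = 0.200), and in old rats it was -0.08 (SE 0.18, 95% interval -0.45 to 0.30, edgeR adjusted p = 0.815). For age it was 0.41 in trained rats (SE 0.18, 95% interval 0.03 to 0.79, edgeR unadjusted p = 0.0352, adjusted p = 0.185) and 0.15 in sedentary rats (SE 0.18, edgeR adjusted p = 0.699). Averaged over training, the value for age was 0.28 (SE 0.13, 95% interval 0.01 to 0.55, edgeR unadjusted p = 0.0405, adjusted p = 0.169). For training averaged over age it was -0.20 (SE 0.13, 95% interval -0.47 to 0.06, edgeR adjusted p = 0.225). Single libraries weighed on these values. Without young trained replicate 4 the log2 fold change was -0.15 for training in young rats and 0.24 for age in trained rats, and the averages were -0.11 for training and 0.20 for age. Without young trained replicate 3 the same values grew to -0.46 and 0.55, and the averages to -0.27 and 0.35. Their edgeR adjusted p then ran from 0.0618 to 0.0844. Age in sedentary rats gave 0.05 without old sedentary replicate 1 and 0.09 without young sedentary replicate 1. The value for training in old rats depended on single libraries in size and sign: it was 0.02 without old sedentary replicate 1, -0.02 without old trained replicates 2 or 4, -0.13 without old sedentary replicate 2 and -0.15 without old trained replicate 3.

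mt-Co3 (ENSRNOG00000030700), the third core subunit of complex IV, lay between 7601 CPM (old sedentary replicate 2) and 10940.3 CPM (old sedentary replicate 1), so the extremes of all 16 libraries fell in 1 group. Its means were 8972 ± 1061 for young sedentary, 9123 ± 713 for young trained, 9259 ± 1370 for old sedentary and 9440 ± 1101 for old trained rats (CPM, mean ± SD, n = 4 per group). The log2 fold change was 0.03 for training averaged over age (SE 0.08, 95% interval -0.15 to 0.20, edgeR adjusted p = 0.836) and 0.05 for age averaged over training (SE 0.08, 95% interval -0.13 to 0.22, edgeR adjusted p = 0.754).

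mt-Atp6 (ENSRNOG00000031979) encodes the subunit that, with the ring of c subunits, forms the proton path of complex V. It stood at 7068, 8354, 7360 and 8285 CPM in young sedentary replicates 1 to 4 and at 8100, 7884, 8159 and 7054 CPM in young trained replicates 1 to 4. In old sedentary replicates 1 to 4 it stood at 7223, 6047, 7228 and 7365 CPM, and in old trained ones at 7534, 6905, 8133 and 7031 CPM. Old sedentary replicate 2 was the lowest library, and the other old sedentary libraries overlapped with the lower young ones. The means were 7767 ± 650 for young sedentary, 7799 ± 511 for young trained, 6966 ± 616 for old sedentary and 7401 ± 559 for old trained rats (CPM, mean ± SD, n = 4 per group). For age the log2 fold change was -0.16 in sedentary rats (SE 0.09, 95% interval -0.35 to 0.03, edgeR adjusted p = 0.344) and -0.12 averaged over training (SE 0.06, 95% interval -0.25 to 0.02, edgeR adjusted p = 0.257). For training averaged over age it was 0.05 (SE 0.06, edgeR adjusted p = 0.598).

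mt-Atp8 (ENSRNOG00000033299) encodes a small membrane subunit of complex V. It ranged from 347 CPM (young sedentary replicate 3) to 605 CPM (old trained replicate 3). Young sedentary rats held both low and high libraries, at 356, 591, 347 and 518 CPM in replicates 1 to 4, with a mean of 453 ± 121 (SD, n = 4). The means of the other groups were 499 ± 54.7 for young trained, 500.1 ± 75.2 for old sedentary and 475 ± 90.4 for old trained rats (CPM, mean ± SD, n = 4 per group). The log2 fold change was 0.03 for training averaged over age (SE 0.12, 95% interval -0.23 to 0.29, edgeR adjusted p = 0.862) and 0.04 for age averaged over training (SE 0.12, 95% interval -0.23 to 0.30, edgeR adjusted p = 0.882). These wide intervals still hold folds from 0.854 to 1.23.

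**Figure D2:**
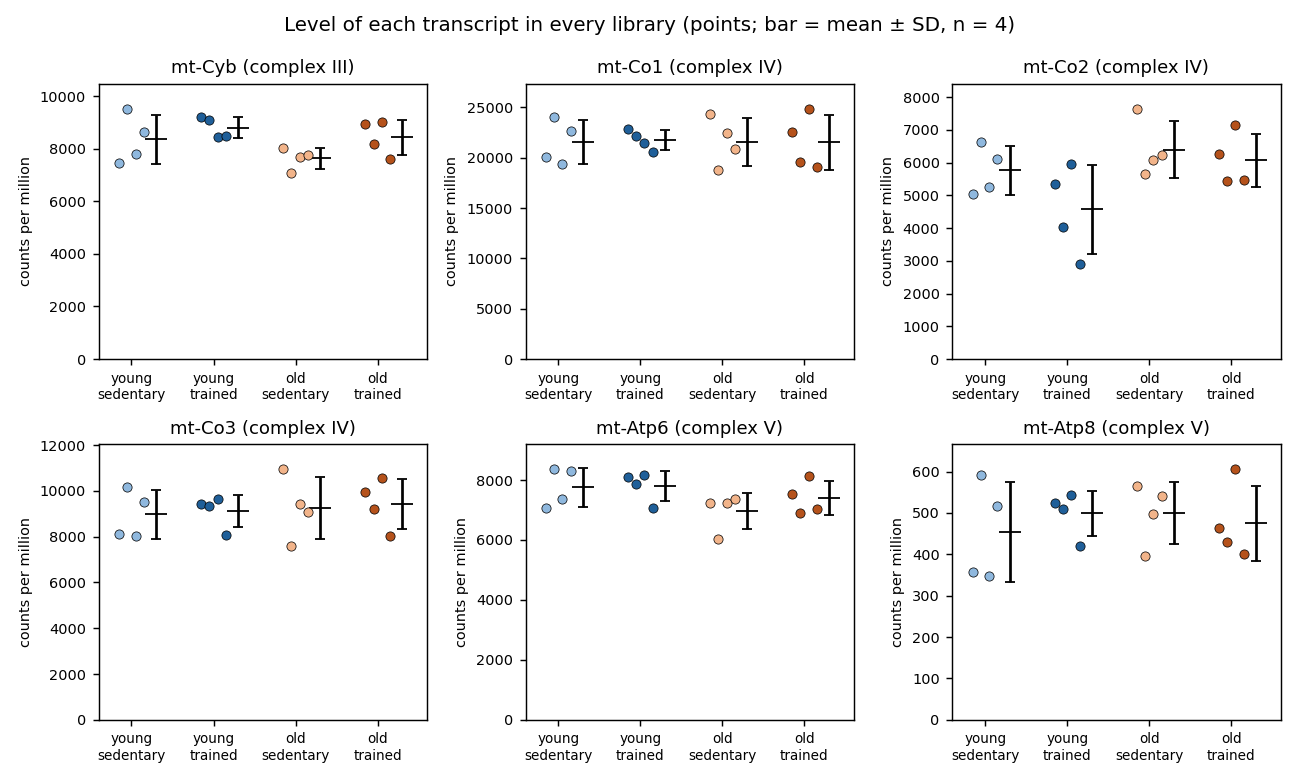
CPM of each transcript on a linear axis from 0, by group. Points are libraries, in replicate order from left to right, and the bar beside them is the mean ± SD (n = 4). Groups that differ in age or training alone overlap in all 6 panels. Young trained and old sedentary rats, which differ in both, do not overlap for mt-Cyb, and the share of all genes separated there was not computed. mt-Co2 in young trained rats is the most spread out, from 2901 to 5972 CPM.

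With the 4 groups of a transcript put in order of their means, each neighbour differed from the next by less than the larger SD of the pair. This held for all 6 transcripts. For mt-Co2 the order was old sedentary, old trained, young sedentary and young trained. For mt-Atp6 it was young trained, young sedentary, old trained and old sedentary, the reverse.

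Whether training altered hippocampal expression was tested over all genes, and 0 of the 6 transcripts were called. Averaged over age, 33.9% of the 15035 genes tested were called, and 52.8% of the 248 genes at least as abundant as mt-Atp8. In young rats 17.1% of all genes and 0 of the 6 members were called, and in old rats 24.1% and 0 of 6. edgeR gave an unadjusted p below 0.05 to 0 members in each of these training comparisons. The 2572 genes called in young rats became 1289 without young sedentary replicate 4 and 1374 without young trained replicate 4, again with 0 members. The median log2 fold change averaged over age was 0.03 for the members and -0.02 for all genes, and the median size of change, sign aside, was 0.04 for the members and 0.17 for all genes. The members' median standard error, 0.08, was close to that of all genes, 0.09, but single members ran from 0.06 (mt-Cyb) to 0.13 (mt-Co2). These medians were not computed for the 248 abundant genes. The groups overlapped in CPM for all 6 members in both ages. Of all genes, 25.2% had groups that did not overlap in young rats and 21.1% in old rats. The 6 members varied together, so such counts of 0 of 6 do not by themselves tell the members from other genes.

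For age averaged over training, edgeR called 10.5% of all genes, 23.8% of the 248 abundant ones and 0 of the 6 members. Of the members 1, mt-Co2, had an unadjusted p below 0.05. In trained rats 4.98% of genes were called, with 0 of 6 members called and mt-Co2 alone at an unadjusted p below 0.05. In sedentary rats 1.51% of genes and 0 of 6 members were called, with 0 members at an unadjusted p below 0.05. With only 6 members, shares of 1.51% to 10.5% leave little to set them against, so these counts do not tell the members from other genes. Groups that did not overlap were found for 0 of 6 members in either state, and for 7.93% of all genes in sedentary and 17% in trained rats. The median size of change averaged over training was 0.07 for the members and 0.12 for all genes. DESeq2's Wald test and limma voom also called 0 members for age and for training. The counts over all genes rested on single libraries, while the members' count was 0 in each of these settings. In sedentary rats the 227 genes became 2007 without old sedentary replicate 3. They became 38 to 142 without young sedentary replicates 1 or 3, old sedentary replicates 1, 2 or 4, young trained replicate 1 or old trained replicate 2. In trained rats the 748 genes became 237 to 455 without young trained replicates 1, 2 or 4 or old trained replicates 1, 2 or 3. Averaged over training, 1585 became 950 without young sedentary replicate 3 and 2452 without old sedentary replicate 3.

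For the interaction, which asks whether training acted differently at the ages, edgeR called 0% of all genes and 0 of the 6 members. At an unadjusted p below 0.05 stood 2033 genes and 0 members. With DESeq2's Wald test 36 genes were called, and 0 with limma voom, members being absent from both. In edgeR 582 genes were called without old sedentary replicate 3 and 5 without young trained replicate 3, with 0 members in both. For mt-Co2 the log2 difference between the training effects (old minus young) was 0.26 (SE 0.25, 95% interval -0.28 to 0.79, edgeR adjusted p = 0.657). It was 0.09 without young trained replicate 4, 0.16 without old trained replicate 3 and 0.40 without young trained replicate 3.

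**Figure D3:**
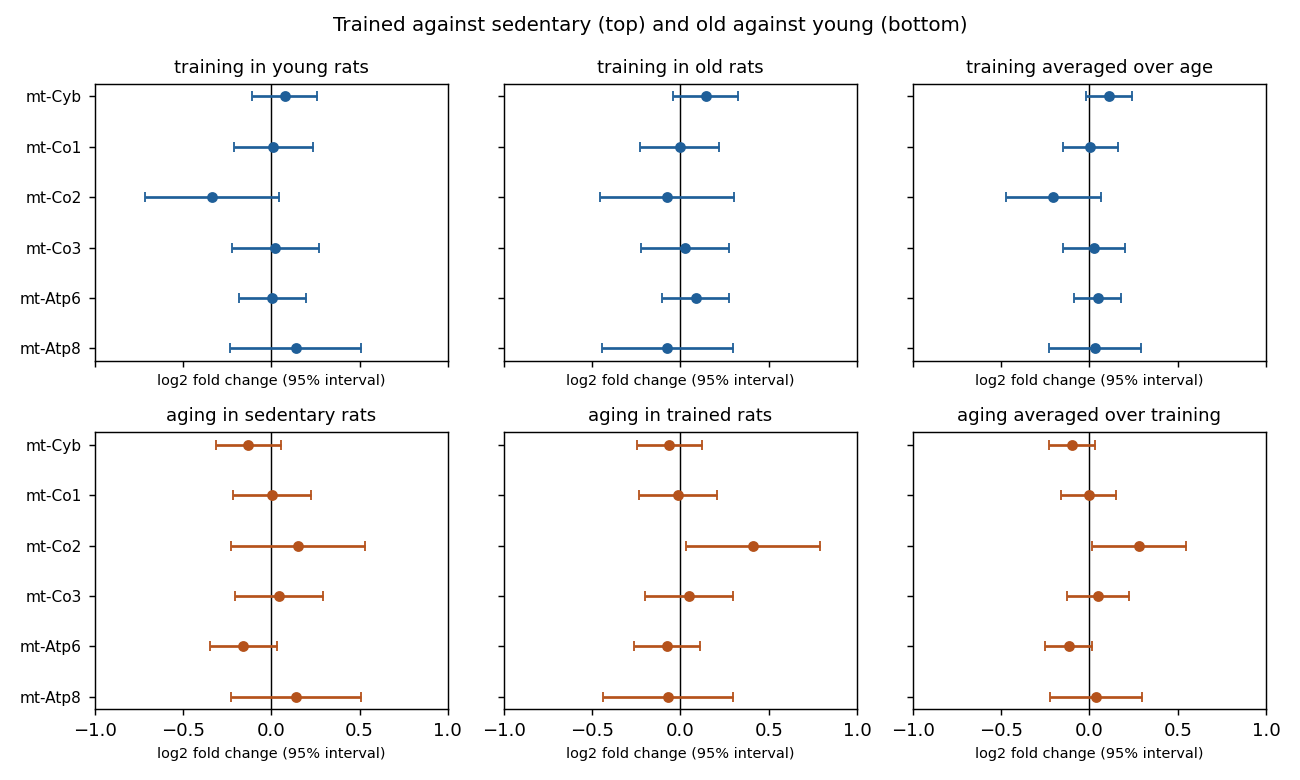
Log2 fold change of each transcript with its 95% interval from the edgeR fit, trained against sedentary above and old against young below. All intervals include 0 except those of mt-Co2 for age in trained rats (0.03 to 0.79) and averaged over training (0.01 to 0.55), whose adjusted p-values were 0.185 and 0.169.

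Over the 7 comparisons, 42 member values in all, log2 fold changes ran from -0.33 to 0.41, both extremes from mt-Co2. The adjusted p-values ran from 0.169 to 0.994. For mt-Co1 the values stayed between -0.02 and 0.01 and for mt-Co3 between 0.0038 and 0.05. A p above the threshold does not show that the groups were alike: the widest intervals, those of mt-Co2 and mt-Atp8 for the interaction, held ratios of folds from 0.602 to 1.73.

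The make-up of the set was examined apart from its level, as counts of each transcript per 100 counts of mt-Co1 in the same library, a ratio that no library scaling can alter. For mt-Co2 this was 26.7 ± 1.11 for young sedentary, 20.9 ± 5.97 for young trained, 29.6 ± 1.85 for old sedentary and 28.2 ± 0.537 for old trained rats (mean ± SD, n = 4 per group). The young trained libraries stood at 23.5, 18.3, 27.8 and 14.1 in replicates 1 to 4, so 3 of the 4 were below every other library and replicate 3 was not. The young sedentary libraries stood at 25.1, 27.6, 27.2 and 27.0, the old sedentary ones at 31.4, 30.1, 27.0 and 29.9, and the old trained ones at 27.6, 27.8, 28.7 and 28.6. Old rats thus had more mt-Co2 per mt-Co1 on average in both training states, by 0.15 on the log2 scale in sedentary and 0.48 in trained rats, with 1 old sedentary library inside the young sedentary range. The trained groups overlapped too, as young trained replicate 3, at 27.8, lay above old trained replicate 1, at 27.6. Averaged over training the difference was 0.31 (exact permutation within training state, 2-sided, p = 0.00367, adjusted p = 0.0367 over 10 ratio tests, where the smallest possible p is 0.000408). The test takes young and old libraries of a training state as interchangeable. Their log2 ratios had an SD of 0.43 in young trained and 0.03 in old trained rats, so this p does not measure a difference of means alone. For training averaged over age the log2 difference was -0.23 (exact permutation p = 0.0335, adjusted p = 0.0727).

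The call for age did not withstand the loss of some single libraries. The adjusted exact permutation p was 0.0571 without old sedentary replicate 1 or without young sedentary replicate 1, and 0.0531 without young sedentary replicate 4. It was 0.0914, 0.0667, 0.0980 and 0.0800 without old trained replicates 1, 2, 3 and 4. The difference itself stayed positive throughout, between 0.23 (without young trained replicate 4) and 0.39 (without young trained replicate 3). With fewer libraries there are also fewer arrangements to permute.

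mt-Cyb and mt-Atp6 had fewer counts per mt-Co1 count in old than in young rats, but neither difference passed. mt-Cyb stood at 38.8 ± 1.44 per 100 for young sedentary, 40.5 ± 0.870 for young trained, 35.5 ± 2.31 for old sedentary and 39.3 ± 2.33 for old trained rats (mean ± SD, n = 4 per group). Its log2 difference was -0.09 for age (exact permutation p = 0.0363, adjusted p = 0.0727) and 0.11 for training (exact permutation p = 0.0122, adjusted p = 0.0531). mt-Atp6 stood at 36.1 ± 1.45 per 100 for young sedentary, 35.9 ± 1.52 for young trained, 32.4 ± 2.32 for old sedentary and 34.5 ± 1.86 for old trained rats (mean ± SD, n = 4 per group). Its log2 difference was -0.11 for age (exact permutation p = 0.0159, adjusted p = 0.0531) and 0.04 for training (exact permutation p = 0.304, adjusted p = 0.434).

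For mt-Co3 and mt-Atp8 neither difference passed. mt-Co3 lay between 39.3 and 47.0 per 100 mt-Co1 counts over all 16 libraries, with log2 differences of 0.05 for age (exact permutation p = 0.120, adjusted p = 0.199) and 0.02 for training (exact permutation p = 0.451, adjusted p = 0.564). mt-Atp8 lay between 1.78 and 2.60 per 100, with log2 differences of 0.05 for age (exact permutation p = 0.531, adjusted p = 0.590) and 0.04 for training (exact permutation p = 0.627, adjusted p = 0.627). The denominator mattered. In a setting chosen after these ratios were seen, each transcript was set against the geometric mean of the other 5. Then 3 further differences passed: mt-Atp6 for age (-0.17, exact permutation adjusted p = 0.00952), mt-Cyb for age (-0.15, exact permutation adjusted p = 0.0357) and mt-Co2 for training (-0.28, exact permutation adjusted p = 0.00952). For mt-Co2 that denominator includes the transcripts that differed the other way. For mt-Atp6 and mt-Cyb it includes mt-Co2, which differed the other way for age.

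**Figure D4:**
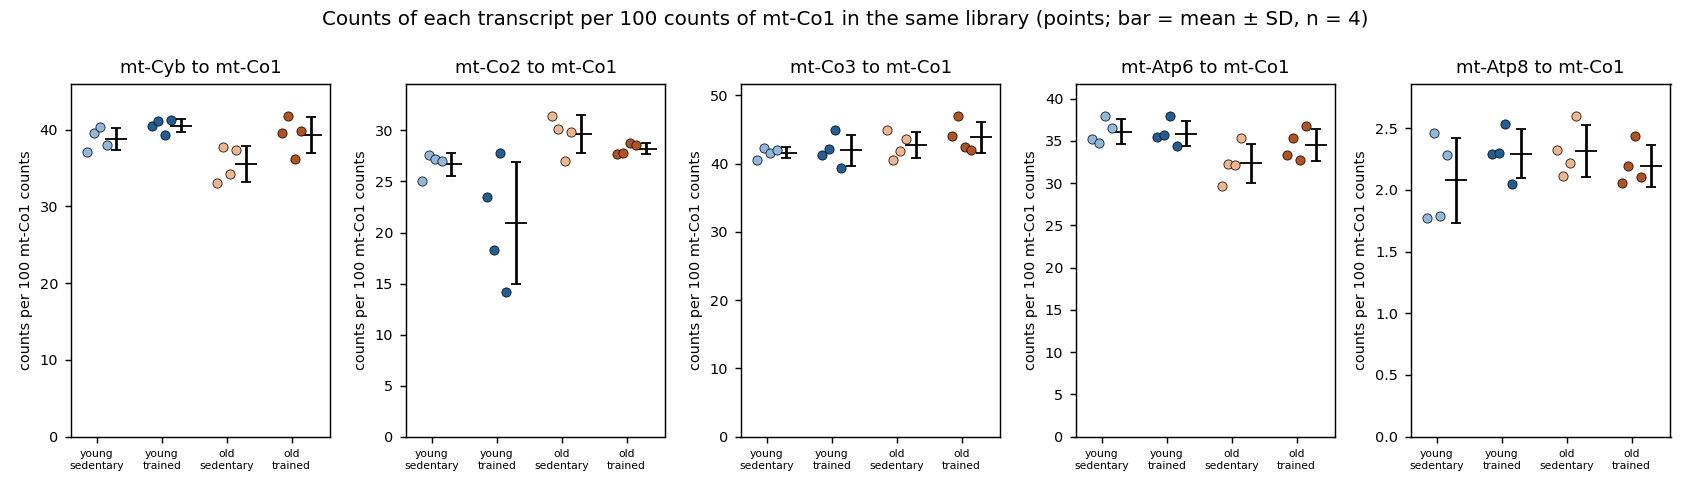
Counts of each transcript per 100 counts of mt-Co1 in the same library, on linear axes from 0. Points are libraries in replicate order and the bar beside them is the mean ± SD (n = 4). For mt-Co2, young trained libraries run from 14.1 to 27.8 and the other groups from 25.1 to 31.4.

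Among 8600 other genes of sufficient level (mean log2 CPM 4 or more), likeness to the set was measured as Pearson's r between a gene's log2 CPM and the members' mean over the 16 libraries. The highest were ENSRNOG00000033615 (r = 0.93) and ENSRNOG00000030478 (r = 0.85). Other mitochondrial transcripts were not left out of the 8600 genes, and whether these IDs are mitochondrial or nuclear was not checked. ENSRNOG00000033615 averaged 824 ± 219 for young sedentary, 821 ± 239 for young trained, 942 ± 307 for old sedentary and 966 ± 189 for old trained rats (CPM, mean ± SD, n = 4 per group). The means of its groups lay closer together than the SD of any of them. The lowest values were those of ENSRNOG00000047628 (r = -0.80) and ENSRNOG00000009625 (r = -0.80). These are the extremes of 8600 values, the libraries share their groups and depth, and no test was made.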

How the data were processed

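Poly(A) RNA of hippocampus was sequenced, per the labels' protocols, which name 5 libraries per condition; 4 per group are analysed here, 1 rat each. The deposited values are raw counts per Ensembl gene ID, with no normalization. TopHat2 2.1.1, HTSeq, SAMtools, Trimmomatic, FastQC, DESeq2 and the build Rnor_6.0 are listed in the submitters' processing notes. Strand setting and sequencing lane are not stated there; effects of lane and of group therefore cannot be told apart.

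Counts were fitted in R 4.3.3 with edgeR 4.0.16 (filterByExpr by group, TMM, glmQLFit robust, 1 mean per group, 16 libraries, 12 residual degrees of freedom). The 7 contrasts were tested 2-sided with glmQLFTest and adjusted by Benjamini-Hochberg over 15035 genes. Adjusted p below 0.05 made a call. The standard error was the log2 fold change divided by the square root of F, and 95% intervals used the moderated t distribution. Ratios of raw counts were tested by exact permutation within strata in a family of 10. Principal components and likeness used a prior count of 2. Named genes were the 6 members and the 2 most and 2 least alike. The fit was tested on simulated data. Counts of libraries of a group differed by more than sampling noise in every pair (chi-square per degree of freedom at least 4.43).

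Alternatives used DESeq2 1.42.0, limma 3.58.1 and the settings of the closing section. The 16 pathway and marker lists were not tested, because 0 of the IDs matched the gene table of assembly GRCr8. The members, lists and tests were chosen with earlier results of these data known. The names of the 6 IDs come from the rule that defined the set.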

Additional observations from a re-analysis of the deposited data

Results flagged for a closer look

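mt-Atp6 in old sedentary replicate 2 stood at 6047 CPM, against 7223 to 7365 CPM in the remaining libraries of its group, a gap that is large for a group of 4. It was the only one of 48 sets of 4 libraries examined (levels, ratios and shares) with such a gap. Chance marks about 5% of independent sets.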

How the results depend on the processing

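The count of members called was 0 of 6 in all 7 comparisons and in all 186 recomputed counts: under DESeq2 size factors, total count scaling, TMM without the members, DESeq2's Wald test, limma voom, no filter, a floor of 1 CPM in 8 or more libraries, the replicate block, only the libraries compared, each library left out, old sedentary libraries 1, 2 and 4 left out (the lone library is then assumed to vary like the other groups) and, chosen after the data were seen, the first component of the spread within groups as a covariate. The lowest adjusted p of a member was 0.0559, for training averaged over age without young sedentary replicate 2. Of 1116 recomputed log2 fold changes 99 changed sign, with 0 called before or after. The planned surrogate variable fit was not run: sva 3.50.0 on log2 CPM gave 0 of 15035 genes a weight above 0. No other setting of sva is reported here.

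The labels call the replicate numbers biological replicates and state no pairing of rats. Same-numbered libraries of different groups had a correlation of deviations above 0.1 in 12 of 24 pairs. It ran from -0.24 (replicate 1) to 0.48 (replicate 3), both between young and old sedentary rats. Of 16 libraries, 9 correlated best with a library of their own number. In each other group only 1 of the 4 libraries carried that number, so a smaller count would be likely without pairing. The ratio tests took no account of the number. Whether libraries of the same number share a source was not tested. With the replicate block 0 members were called, the log2 fold change of mt-Co2 for age averaged over training was 0.28 (SE 0.12, edgeR adjusted p = 0.148), and 560 genes in place of 227 were called for age in sedentary rats.

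Leaving out 1 library gave log2 ratios to mt-Co1 of 0.2259 to 0.3886 for mt-Co2 and -0.1294 to -0.0874 for mt-Atp6 by age, and of -0.3090 to -0.1463 for mt-Co2 and 0.0877 to 0.1251 for mt-Cyb by training. The last 3 passed in some of these settings, as they did not with all libraries. Against the geometric mean of the other 5, chosen after the data were seen, values were -0.1475 for mt-Cyb and -0.1740 for mt-Atp6 by age and -0.2755 for mt-Co2 by training.

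The counts over all genes moved more. Over the alternatives they ran from 1289 to 4393 for training in young rats, 0 to 4510 in old rats, 3 to 2007 for age in sedentary and 237 to 1348 in trained rats, 0 to 582 for the interaction, 1866 to 5988 for training averaged and 114 to 2452 for age averaged. The lowest was without old sedentary libraries 1, 2 and 4 for training in old rats, age in sedentary rats and both averages. Total count scaling moved the share of higher calls from 39.7% to 28.2% for training in young rats, 47.8% to 34.7% in old rats, 46.9% to 33.7% for training averaged over age and from 52.2% to 62.5% for age averaged over training. No member had fewer than 3566 counts in a library.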
